A study of Mus musculus with 12 samples.

Results

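The genes described here are 10 genes of DNA replication licensing: the 6 subunits of the MCM helicase (Mcm2, Mcm3, Mcm4, Mcm5, Mcm6 and Mcm7), 3 factors that load it onto DNA (Orc1, Cdc6 and Cdt1) and the loading inhibitor geminin (Gmnn). They were chosen by symbol from the 55401 genes of a raw count table, and all 10 had a row in it. The choice was made on earlier results of these libraries, in which Mcm4 was lower in every dorsomorphin library than in every control library of primary follicles, so the values of that comparison are given below as a description with no test of the 10 genes.

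The study sequenced RNA of mouse oocytes cut by laser from fixed ovary sections, in order to ask what inhibition of AMP-activated protein kinase by dorsomorphin (DM) does to oocytes of 2 follicle stages. Ovaries of C57Bl/6j x CBA/J female mice aged 7 to 8 days were cultured for 5 days with DM or with the solvent DMSO, and oocytes of primordial and of primary follicles were then captured by their appearance and pooled. There were 4 groups of 3 libraries each, all of the same cross: primordial control, primordial DM, primary control and primary DM. The labels describe the samples as in vivo and the control treatment as sham, where the methods describe cultured ovaries and DMSO. The libraries of a group are called biologically independent pools, and the labels do not tie a pool to particular animals.

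Licensing prepares DNA for copying once per cell cycle. The origin recognition complex, of which Orc1 is a subunit, and Cdc6 sit on an origin and, with Cdt1, place a double ring of the MCM subunits around the DNA, while geminin binds Cdt1 and prevents a second loading. The MCM, Orc1, Cdc6 and Cdt1 genes are textbook targets of the E2F transcription factors. Oocytes of primordial and primary follicles rest in meiotic prophase and do not replicate their DNA, whereas granulosa cells around them divide once a follicle grows.

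Promoter windows from RefSeq (GRCm38.p6, 250 bases before to 50 bases after each start site) were searched on both strands for 4 E2F-type forms, TTTCCCGC, TTTCGCGC, TTTGCCGC and TTTGGCGC. Windows were found for 8 of the 10 genes, all but Mcm4 and Gmnn, and 7 of these 8 held at least 1 form, all but Mcm2, against 2.26% of the 32851 windows of all genes and 704 of 27025 genes. Matches on the opposite strand can overlap, as in Mcm5 and Mcm6. The stretches below show 1 match for each of the 4 MCM genes that held one, with the matched form or its reverse complement in capitals, as the strand of the gene reads it.
Mcm3, chr1:20820278-20820301, minus strand: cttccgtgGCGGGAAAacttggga
Mcm5, chr8:75109348-75109371, plus strand: ccaagaacTTTCGCGCcaaaacgt
Mcm6, chr1:128359800-128359823, minus strand: cgtatgctTTTGGCGCgaaaagtg
Mcm7, chr5:138171852-138171875, minus strand: tgacgacgTTTCGCGCcaatttcg
The match was centred 23 bases after the start site in Mcm3, 149 before it in Mcm5, 106 before it in Mcm6 and 20 after it in Mcm7. Mcm7 had 2 windows, of which 1 held a form, so its distance is from 1 of 2 start sites. Of the loaders, Orc1 had its match closest to the start site, 23 bases before it: chr4:108579419-108579442, plus strand, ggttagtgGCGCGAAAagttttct. These matches describe letters in a window.

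Library totals ran from 14034586 to 42639326 counts, and a gene counted 0 times in a library could be present at up to 0.0704 to 0.214 CPM (counts per 1000000 counts of the library), a limit of 3 counts that covers counting error only. The libraries differed strongly within groups: 3281 to 7909 genes reached 1 CPM where follicles were primordial and 5106, 5662 and 1727 with primary control, against 2864, 1798 and 2369 in the primary DM libraries. The germ cell marker Ddx4 was above 0 in all 12 libraries but at 1 CPM or more in only 8. Among the other oocyte markers, this ran from 8 libraries (Gdf9 and Nlrp5) down to 0 (Sohlh1 and Oosp1). The 12 oocyte markers summed to between 1.02 and 1114 CPM, with none of the 12 at 1 CPM in primary DM replicate 1. The granulosa marker Foxl2 and the stromal markers Col1a1, Col1a2 and Col3a1 were at 1 CPM or more in all 12 libraries. The other granulosa markers reached it in 10 libraries (Gata4) down to 0 (Fshr), and the other stromal markers in 9 (Pdgfra) down to 1 (Lum). The 4 hemoglobin genes were at 0 throughout. In such bulk pools, fewer cells of a type and less RNA per cell cannot be told apart.

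Reads of the licensing genes came almost wholly from the MCM subunits. Per length of exon, as CPM per kilobase (RPKM), Mcm6 had the highest median level over the 12 libraries at 7.76 RPKM, followed by Mcm7 at 1.54, Mcm2 at 1.07, Mcm4 at 0.506, Mcm3 at 0.185 and Mcm5 at 0.00946, and the medians of Orc1, Cdc6, Cdt1 and Gmnn were 0. Neighbours in this order overlapped widely: Mcm6 ranged from 0.0611 to 35.0 RPKM and Mcm7 from 0.00530 to 47.2 RPKM. Mcm4 had a low median and the highest maximum, 1747 RPKM.

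At a line of 1 CPM, Mcm4 (ENSMUSG00000022673.5, chr16:15623897-15637400 of GRCm38, minus strand) was the most regularly detected of the 10 genes. At 10 CPM it was Mcm6, in 8 libraries against 5 for Mcm4. Mcm4 reached 1 CPM in 11 of 12 libraries, a share that 664 of the 11275 genes at 1 CPM in any library met. Mcm6 did so in 8 libraries, Mcm7 and Mcm2 in 7 each, Mcm3 in 6 and Mcm5 in 5. Mcm4 fell into separate ranges: 7 libraries held 30 to 61 counts, or 0.941 to 1.98 CPM, and the other 5 held 1269 to 195077 counts. The 7 low libraries came from 3 groups, and the 5 high ones were replicate 1 of both primordial groups and all 3 primary control libraries. The counts of every gene and library are drawn in the plot of raw counts.

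**Figure D1:**
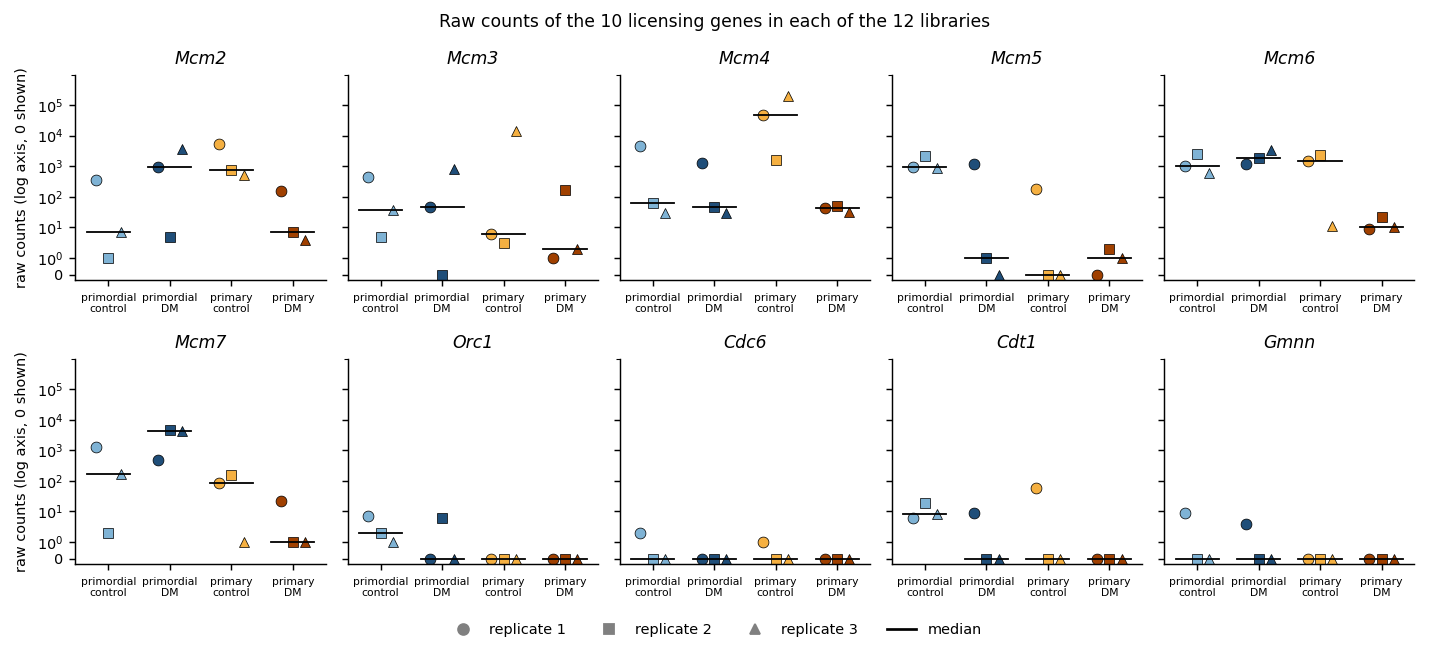
Raw counts (log axis with 0 shown) of the 10 licensing genes in the 12 libraries, by group, with the replicate number as the marker and the group median as a line. Some MCM genes spread over several orders of magnitude within a group, such as Mcm3 in primary control (3 to 14695 counts). Others are narrow, such as Mcm6 in primordial control (620 to 2607) and Mcm4 in primary DM (33 to 51). Mcm4 reaches 195077 counts in a primary control library, and Orc1, Cdc6, Cdt1 and Gmnn stay at 58 counts or fewer.

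No single subunit led the MCM level throughout. Per exon length, Mcm4 had the highest RPKM of the 6 in 5 libraries, Mcm6 in 2, Mcm7 in 2, and Mcm2, Mcm3 and Mcm5 in 1 each, and the leading gene held between 30.2% and 93.2% of the summed MCM RPKM of its library. The 6 subunits assemble in equal numbers in the helicase, and their RNA was not near equal in these libraries. In primordial control replicate 2, for example, Mcm6 was at 15.1 RPKM and Mcm5 at 14.9 RPKM while Mcm2 was at 0.00388 and Mcm7 at 0.0122 RPKM. In primordial DM replicate 2, Mcm7 was at 30.6 RPKM and Mcm6 at 11.1 RPKM while Mcm3 was at 0 and Mcm5 at 0.00718 RPKM.

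The first comparison asked whether the licensing genes differed between DM and control in primordial follicles, which the choice of genes did not use. Their summed level did not separate the groups: the 6 MCM genes added up to 225, 132 and 113 CPM with control and to 135, 189 and 579 CPM with DM. Of the 5 MCM genes that reached 10 CPM in a control library, 0 stayed under it in every DM library, where 37.2% of all genes that reached it did so. All 6 MCM genes reached 10 CPM in at least 1 DM library.

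Mcm2 (ENSMUSG00000002870.8, chr6:88883474-88898780 of GRCm38, minus strand) had 357, 1 and 7 counts with control and 932, 5 and 3645 with DM. Both groups thus held a library with almost no Mcm2 reads, and the groups overlapped. Its log2 fold change was 5.62 ± 3.65 (SE), with an adjusted p of 0.683 in the quasi-likelihood test of edgeR (Benjamini-Hochberg) over 6699 genes. Leaving out DM replicate 3 gave 2.69 on the log2 scale.

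Mcm7 (ENSMUSG00000029730.16, chr5:138164583-138172422, minus strand), another core subunit, had 1290, 2 and 168 counts with control and 472, 4718 and 4396 with DM. The 2 highest libraries were DM libraries, but the highest control library exceeded the lowest DM library. The log2 fold change was 4.05 ± 3.26 (SE) with an adjusted p of 0.767 in the same test of edgeR, a Benjamini-Hochberg value. Exons of Mcm7 overlap Mir25 and Mir93 on its own strand and Ap4m1 and Cops6 on the other, and the strand setting of the counting is not given in the sources used here, so some of these reads may belong to the neighbours.

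Mcm6 (ENSMUSG00000026355.11, chr1:128331590-128359664, minus strand) was the steadiest of the MCM genes in primordial follicles. Control libraries held 1039, 2607 and 620 counts, 46.3 ± 21.9 CPM (SD, n = 3), and DM libraries 1199, 1814 and 3277, 79.7 ± 66.6 CPM (SD, n = 3). Every library of primordial follicles held it, and the groups overlapped, with a log2 fold change of 1.28 ± 2.97 (SE).

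Mcm5 (ENSMUSG00000005410.6, chr8:75109569-75128439, plus strand) was present in all 3 primordial control libraries, at 924, 2206 and 854 counts, and in 1 DM library, at 1226, 1 and 0 counts. The DM library with reads lay within the control range in CPM. The log2 fold change of Mcm5 was -1.99 ± 3.07 (SE), and it became -10.86 without that DM library, replicate 1.

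Mcm3 (ENSMUSG00000041859.10, chr1:20802968-20820312, minus strand) had 455, 5 and 37 counts with control against 45, 0 and 842 with DM, and Mcm4 had 4438, 61 and 30 against 1269, 45 and 30. In both genes each group held high and low libraries. The log2 fold change was 2.71 ± 2.97 (SE) for Mcm3 and -0.82 ± 2.89 (SE) for Mcm4, and both changed sign when 1 library was left out: Mcm3 to -2.32 without DM replicate 3 and Mcm4 to 2.80 without control replicate 1. The sign of Mcm4 also turned under the scaling by DESeq2 size factors.

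None of the 6 MCM genes passed the test in primordial follicles (0 at an adjusted p under 0.05 by edgeR, 0 at an unadjusted p under 0.05), where 0.0149% of all genes tested passed it and 7.33% had an unadjusted p under 0.05. DESeq2, which called 11% of the 6018 genes it gave an adjusted p, called 1 of them, Mcm2, with an adjusted p of 0.0244, the lowest of a range up to 0.999 over the alternatives. The adjusted p-values of the 6 genes in edgeR ran from 0.683 to 0.967. The standard errors near 3 log2 units were those of the libraries as a whole, with a median of 2.84 over all genes tested. Even large changes did not pass: Mcm2, at a log2 fold change of 5.62, had an adjusted p of 0.683 by edgeR. E2f3, a replication pathway gene described below, was at -9.21 with an adjusted p of 0.658 in the same test. The lack of a call by edgeR thus does not exclude changes of several log2 units in the 6 MCM genes. In 0 of the 6 genes were all DM libraries below all control libraries, and in 0 above, shares that were 11% and 2.06% over all genes tested. The median log2 fold change of the 6 was 2.00, against 0.13 over all genes.

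In primary follicles, the contrast from which the genes were chosen, no MCM gene exceeded 5.42 CPM in a DM library, and this is given as a description only. The 6 MCM genes added up to 1563, 343 and 6760 CPM with control and to 8.11, 5.86 and 1.45 CPM with DM. With Mcm4 left out the sums were 204, 226 and 490 CPM against 6.58, 4.67 and 0.513 CPM. Of the 5 MCM genes that reached 10 CPM in a control library, 5 were under it in every DM library, as were 55.5% of all 5504 genes that reached it, and the DM libraries also had fewer genes detected than 2 of the 3 control libraries. Without control replicate 3, a choice made after seeing the data, the counts were 4 of 4 genes and 54.5% of all genes.

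**Figure D2:**
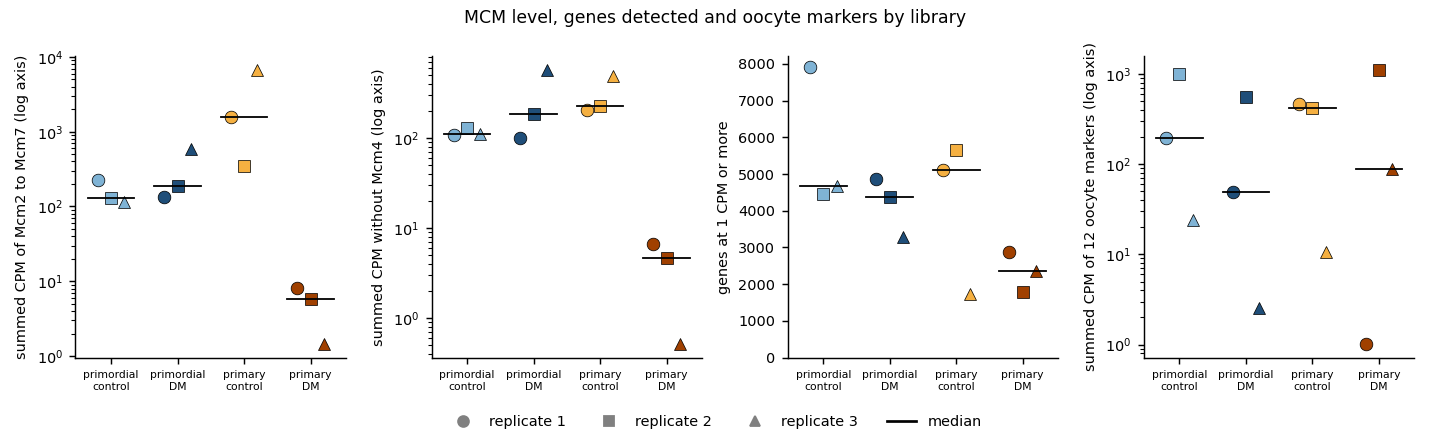
From left to right, the summed CPM of the 6 MCM genes, the same without Mcm4, the number of genes at 1 CPM or more and the summed CPM of 12 oocyte markers in each of the 12 libraries (log axes except for the number of genes), with group medians as lines. The primary DM libraries lie at 1.45 to 8.11 CPM of MCM reads, below the 9 other libraries. Their oocyte markers range from 1.02 to 1114 CPM, the highest sum almost wholly from Ddx4 (1113 CPM). Of the 12 oocyte markers 0, 1 and 4 reach 1 CPM in these libraries, against 8, 8 and 2 in the primary control libraries.

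Mcm4 had 46302, 1633 and 195077 counts with control and 42, 51 and 33 with DM, or 2582 ± 3254 and 1.22 ± 0.294 CPM (SD, n = 3). The control libraries differed widely among themselves while the DM libraries were close together, and the DM counts lay within the 30 to 61 counts of the 7 low libraries described above. The log2 fold change was -11.53 ± 3.91 (SE), and -7.21 without control replicate 3.

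Mcm2 had 5250, 725 and 530 counts with control and 149, 7 and 4 with DM, with a log2 fold change of -4.55 ± 3.24 (SE). It was the only other member with every DM library below every control library. These 2 of the 4 MCM genes that passed the filter on low counts stand beside 11.8% of all 4181 genes tested that were lower in every DM library, and 1.27% that were higher. Without control replicate 3 the count was 4 of 4, beside 30.8% of all genes.

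Mcm6 had 1436, 2292 and 11 counts with control and 9, 22 and 10 with DM, and Mcm7 had 85, 158 and 1 against 22, 1 and 1. In both genes control replicate 3 was as low as the DM libraries, the library that held 195077 counts of Mcm4 and 1727 genes at 1 CPM. The log2 fold changes were -5.35 ± 3.29 (SE) for Mcm6 and -2.66 ± 2.41 (SE) for Mcm7. Both depended on the scaling, at -2.39 and -0.40 with DESeq2 size factors in edgeR and at -2.64 and -0.16 with DESeq2.

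Mcm3 and Mcm5 were too sparse in primary follicles to pass the filter. Mcm3 had 6, 3 and 14695 counts with control and 1, 167 and 2 with DM, so that a single library held nearly all its reads. Mcm5 had 174, 0 and 0 against 0, 2 and 1 counts.

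**Figure D3:**
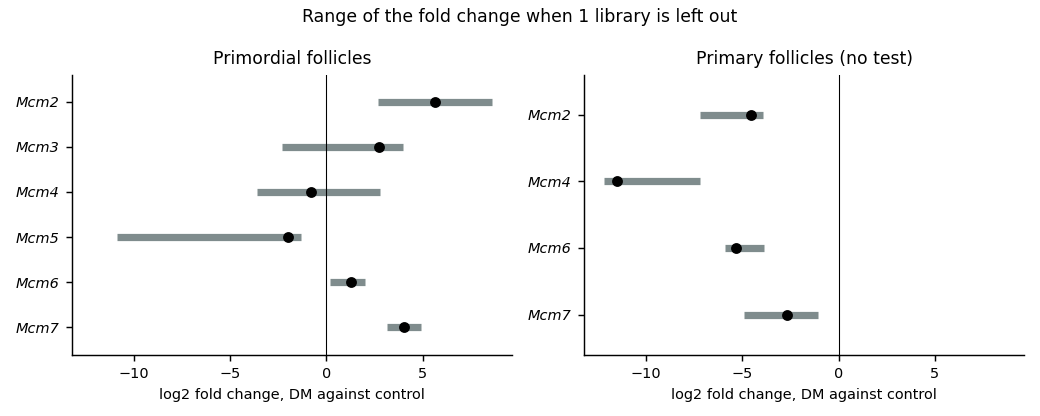
Log2 fold change of DM against control for the MCM genes past the filter (points) and its range when each of the 6 libraries of the stage is left out in turn (bars). In primordial follicles the bars of Mcm3 and Mcm4 cross 0, and in primary follicles the bar of Mcm4 reaches from -12.16 to -7.21.

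The stage comparison set primary against primordial follicles within each treatment, and Mcm4 is described there without a test, since its primary libraries entered the choice of genes. In the control libraries, Mcm2 was higher in every primary library (17.0 to 154 CPM) than in every primordial library (0.0270 to 9.43 CPM), which 1.23% of all 6726 genes tested were. Mcm5 was lower in every primary library (0 to 5.11 CPM) than in every primordial library (24.4 to 59.5 CPM), which 8.46% of all genes were. The log2 fold change was 5.36 ± 3.44 (SE) for Mcm2 and -4.71 ± 3.45 (SE) for Mcm5, with adjusted p-values of 0.799 and 0.832 in the quasi-likelihood test of edgeR (Benjamini-Hochberg).

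Mcm3 had the smallest unadjusted p of the control comparison among the licensing genes, with a log2 fold change of 7.73 ± 3.04 (SE) and an adjusted p of 0.734 in the edgeR quasi-likelihood test. This value rested on 1 library: without primary control replicate 3 it was -4.25. Mcm6 (0.27 ± 2.84, log2 fold change ± SE), Mcm7 (-1.59 ± 2.90) and Cdt1 (0.58 ± 2.00) lay within 1 standard error of no difference, and the sign of Mcm6 depended on the scaling. Mcm4 was at 8.57 ± 2.68 (SE), and at 4.87 without primary control replicate 3. Of the 6 genes given a test, 0 passed it by edgeR, as 0% of all genes did, 1 had an unadjusted p under 0.05 beside 6.44% of all genes, and DESeq2 called 1, Mcm2, beside 5.16% of the genes it gave an adjusted p.

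In the DM libraries, Mcm6 and Mcm7 were lower in every primary than in every primordial library, which 17% of all 4331 genes tested were, while 1.45% were higher in every primary library. Mcm6 had 31.4 to 156 CPM in the primordial and 0.285 to 0.516 CPM in the primary libraries, and its log2 fold change was -6.20 ± 3.35 (SE). Mcm7 had 12.3 to 209 CPM against 0.0235 to 0.800 CPM, with a log2 fold change of -8.01 ± 3.72 (SE). Their adjusted p-values were 0.311 and 0.286 in the quasi-likelihood test of edgeR (Benjamini-Hochberg).

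Mcm2, at -4.55 ± 3.15 (log2 fold change ± SE), and Mcm3, at -1.51 ± 2.67, overlapped between the stages under DM. Mcm4, at -1.70 ± 2.47 (SE), did so too, and its sign turned to 1.17 without primordial DM replicate 1, to 0.82 with DESeq2 size factors in edgeR and to 0.25 with DESeq2. Of the 4 genes given a test in the DM libraries, 0 passed it by edgeR, as 0% of all genes did, and 1 (Mcm7) had an unadjusted p under 0.05 beside 17.2% of all genes. DESeq2, which called 19.1% of the genes it gave an adjusted p, called 2, Mcm6 and Mcm7, with adjusted p-values of 0.0491 and 0.0128, which reached 0.977 in other alternatives.

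**Figure D4:**
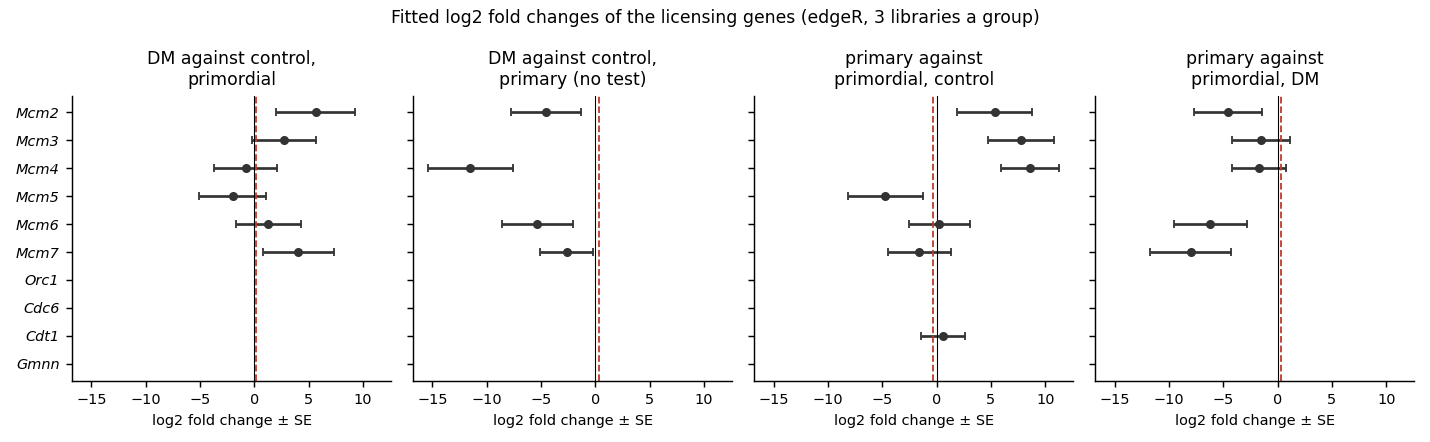
Fitted log2 fold changes (points) with standard errors (bars) of the licensing genes past the filter in the 4 comparisons, 3 libraries a group, with the median over all genes tested as a dashed line. The standard errors run from 2.00 to 3.91 log2 units, and Orc1, Cdc6 and Gmnn pass the filter in none of the comparisons.

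Whether the difference between DM and control itself differed between the stages was fitted as an interaction over all 12 libraries. This fit contains the contrast from which the genes were chosen, so its values are a description and no test of the licensing genes is read from it. A negative interaction means a lower difference of DM from control in primary than in primordial follicles. Mcm2 had an interaction of -9.87 ± 4.66 (log2, SE), Mcm3 of -9.61 ± 4.37 and Mcm4 of -10.48 ± 3.44. For Mcm3 the sign depended on 1 library, at 2.95 without primary control replicate 3. Mcm6 was at -6.22 ± 4.28 (log2, SE), Mcm7 at -6.17 ± 4.29, Mcm5 at -1.74 ± 4.10 and Cdt1 at -4.72 ± 3.84. Mcm5 turned positive with DESeq2 size factors in edgeR (1.60). The value of Cdt1 depends on the prior count, since all its primary DM libraries were at 0, and it turned to 2.06 without primary control replicate 1.

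The factors that load the helicase were hardly detected. Cdt1 (ENSMUSG00000006585.3, chr8:122568015-122573554, plus strand), which brings the MCM ring to the origin, had 6, 19 and 8 counts in the primordial control libraries, 9, 0 and 0 in primordial DM, 58, 0 and 0 in primary control and 0 in all 3 primary DM libraries. It was thus present in every primordial control library and in 1 library of each of 2 other groups. Against the limit of 3 counts per library, its mean in primary control was at least 6.42-fold higher than in primary DM, which rested wholly on control replicate 1. Cdt1 reached 1 CPM in that library alone.

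Orc1 (ENSMUSG00000028587.18, chr4:108579423-108614833, plus strand), which binds ATP in the origin recognition complex, had 7, 2 and 1 counts in primordial control, 0, 6 and 0 in primordial DM and 0 in all 6 libraries of primary follicles. Cdc6 (ENSMUSG00000017499.15, chr11:98907801-98923940, plus strand) had 2 counts in primordial control replicate 1 and 1 count in primary control replicate 1, and 0 in the other 10 libraries. Gmnn (ENSMUSG00000006715.11, chr13:24751845-24761923, minus strand), which encodes geminin, had 9 counts in primordial control replicate 1 and 4 in primordial DM replicate 1, and 0 elsewhere. Of these 3 genes none reached 1 CPM in any library, and at this depth no difference between groups was detectable. The 4 loading and inhibitor genes together came to at most 1.73 CPM in a library, where the MCM genes came to at least 1.45 CPM.

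The 8 markers of dividing cells, such as Mki67 and Top2a, summed to 3.34 to 238 CPM in primordial control, 5.37 to 796 in primordial DM, 3.28 to 1746 in primary control and 0.962 to 491 in primary DM. In each group the largest sum came mostly from Ccna2 or Top2a, and Mki67 reached 1 CPM in 2 of the 12 libraries. Primary control replicate 1 held 1746 CPM of these markers, of which Top2a made up 1744 CPM, with 1563 CPM of MCM genes. Primary DM replicate 2 held 0.962 CPM of the markers with 5.86 CPM of MCM genes. Primary DM replicate 1 held 491 CPM of these markers, of which Ccna2 made up 467 CPM, with 8.11 CPM of MCM genes. Primary control replicate 3 held 3.28 CPM with 6760 CPM of MCM genes. The 10 granulosa markers summed to 195 to 11125 CPM over the libraries and the 8 stromal markers to 2164 to 12856 CPM. The part that granulosa or stromal RNA has in the MCM values was not tested.

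The genes whose levels over the 12 libraries were most like those of Mcm4, by Spearman correlation of log2(CPM + 1) among 4762 genes with 10 counts or more in at least 6 libraries, were Mau2 (rho = 0.93), which loads cohesin, and the aminoacyl-tRNA synthetases Eprs (0.92) and Lars (0.92). Lars had 8928, 10627, 1823 and 57987 counts in the libraries of primordial control 1 and primary control 1 to 3, which are those where Mcm4 was highest, and 7 to 22 counts in 7 of the other 8 libraries. Of the MCM genes, rho with Mcm4 was 0.56 for Mcm2, 0.42 for Mcm3 and 0.15 each for Mcm6 and Mcm7. Mcm5, with 10 counts or more in 5 libraries, was not among the genes compared. Mau2, Eprs and Lars were picked as the highest of all genes compared, so any other gene had to rank below them. The Mcm4 values also include the primary libraries that entered the choice of genes. The 12 libraries share groups and differ in the number of genes detected, so these values are a description.

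Many of the 50 other genes of the replication pathway, from the rest of the origin recognition complex to polymerases and the E2F factors, were sparse as well. Ddb1, by contrast, held 6705 to 43093 counts in the 12 libraries. In primordial follicles 25 of the 50 genes passed the filter, 9 with a positive and 16 with a negative log2 fold change. Of these 25, 0 passed edgeR's test (0.0149% of all genes did), and 3 had an unadjusted p under 0.05, all negative (7.33% of all genes). DESeq2 called 2 pathway genes (11% of the genes it gave an adjusted p). The smallest p belonged to E2f3, a transcription factor of the E2F family, with 883, 16126 and 747 counts with control and 10, 12 and 3 with DM. Its log2 fold change was -9.21 ± 4.08 (SE) with an adjusted p of 0.658 in the quasi-likelihood test of edgeR (Benjamini-Hochberg), while DESeq2 gave an adjusted p of 0.000839 and the other alternatives up to 0.999. Dbf4, which activates the kinase that acts on the MCM ring, had 525, 5635 and 25 counts against 0, 7 and 0 and a log2 fold change of -9.40 ± 4.27 (SE), with the same adjusted p in edgeR. All 3 DM libraries of both genes lay below all 3 control libraries, as 11% of all genes did.

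In primary follicles 11 of the 50 pathway genes passed the filter, 5 with a positive and 6 with a negative log2 fold change. By edgeR 0 of the 11 passed the test, as 0% of all genes did, 0 had an unadjusted p under 0.05 beside 12.2% of all genes, and DESeq2 called 2, beside 13.4% of the genes it gave an adjusted p. Of the 19 pathway genes that reached 10 CPM in a control library, 13 were under it in every DM library, beside 55.5% of all genes that reached it. Orc3, a partner of Orc1, had 23, 726 and 7 counts with control and 6, 55814 and 9 with DM, and its log2 fold change of 7.25 ± 3.91 (SE) became -4.21 without DM replicate 2. Orc5, another subunit of that complex, had 7249, 15 and 840 counts against 5, 5 and 27, with a log2 fold change of -6.60 ± 3.60 (SE) and an adjusted p of 0.396 in the quasi-likelihood test of edgeR (Benjamini-Hochberg).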

How the data were processed

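Gene counts were deposited by the authors as 1 table of raw counts, not normalized, for 55401 genes and 12 libraries, all of which were used. RNA was amplified from laser-captured, paraffin-embedded oocytes, for which the labels name a TruSeq RNA Access library kit. The methods also name Smart-seq II for collected oocytes, and which kit made these libraries was not settled further. Reads were trimmed with Trim Galore, aligned to mm10 and counted per gene with featureCounts. The submitters' processing notes name STAR as the aligner and the study's methods name TopHat2, and the strand setting is not given in the sources used here.

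Groups came from the sample titles. Symbols were matched by Ensembl ID (55141 of 55401), and exon lengths and positions came from the GENCODE annotation of GRCm38, the assembly named mm10. CPM used the library total, and RPKM the union of exons. Each comparison was tested with edgeR 4.0.16 (quasi-likelihood, filterByExpr, TMM, prior count 0.125) in R 4.3.3 over all genes past the filter, adjusted by Benjamini-Hochberg at a threshold of 0.05. SE is the log2 fold change divided by the root of F. DESeq2 1.42.0, other scalings, no filter, a fit of all 12 libraries, a replicate block and each library left out in turn were the alternatives. The test was checked on simulated data. Replicate libraries of a group differed far beyond sampling noise, so none was a copy of another in its group. Whether libraries shared a pool cannot be told from this check.

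The 10 members, the pathway list and the marker lists were chosen with earlier results of these data known. All 10 members were named in every comparison, with the pathway genes past the test or otherwise the 2 with the smallest p, and the 3 genes most alike to Mcm4.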

Additional observations from a re-analysis of the deposited data

How the results depend on the processing

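By edgeR no licensing gene given a test in primordial follicles or between the stages passed an adjusted p of 0.05 (0 to 0 genes). Nor did a pathway gene in DM against control of either stage. This held under another scaling, without the filter, in the fit of all 12 libraries and with any 1 library left out. DESeq2 called 1 member (Mcm2) in primordial follicles, beside 11% of the genes it gave an adjusted p. Between stages it called 1 (Mcm2) in control, beside 5.16%, and 2 (Mcm6 and Mcm7) in DM, beside 19.1%. It also called 2 pathway genes in primordial follicles (Rpa1 and E2f3), beside the same 11%. In primary follicles it called 2 (Prim2 and Gins4), beside 13.4%. It gave no p for several members. The interaction holds the contrast by which the genes were chosen, so no count of members called in it is given. At an unadjusted p under 0.05 by edgeR, 1 member each stood out between stages in control (6.44% of all genes) and in DM (17.2%). For pathway genes in primordial follicles the number was 3 (7.33% of all genes).

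Of 431 log2 fold changes of members and named pathway genes under alternatives, 28 changed sign, 3 of them of Mcm4 between stages in DM, which has no test. With DESeq2 these were Mcm4 in primordial follicles (0.12), Mcm6 between stages in control (-0.060), Mcm4 between stages in DM (0.25), and Mcm5 (1.55) and Cdt1 (0.30) in the interaction. With DESeq2 size factors in edgeR they were Mcm4 in primordial follicles (0.012), Mcm6 between stages in control (-0.035), Mcm3 (0.21) and Mcm4 (0.82) between stages in DM and Mcm5 in the interaction (1.60). With 1 library left out the ranges were -2.32 to 3.999 for Mcm3 and -3.62 to 2.80 for Mcm4 in primordial follicles, -4.21 to 11.12 for Orc3 in primary follicles, -4.25 to 10.02 for Mcm3, -0.94 to 1.01 for Mcm6 and -6.40 to 1.24 for Cdt1 between stages in control, -7.25 to 3.37 for Mcm3 and -2.24 to 1.17 for Mcm4 between stages in DM, and -15.55 to 2.95 for Mcm3, -2.98 to 7.06 for Mcm5 and -5.42 to 2.06 for Cdt1 in the interaction. The cause was not tested.

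Deviations of same-numbered control and DM libraries of a stage were nearly uncorrelated (-0.0441 to 0.0352). These values gave no sign of pairing by replicate number but cannot exclude it. Whether same-numbered libraries of primordial and primary follicles were paired was not tested. With the replicate block 0 members were called in primordial follicles and between the stages. Signs changed with it for Mcm3 in primordial follicles (-1.41) and for Mcm6 (-0.47) and Cdt1 (-2.99) between stages in control. In the interaction they changed for Mcm3 (4.67) and Mcm5 (11.39). With TMM scaling the median summed MCM level of the primary DM libraries was 12.4 CPM, against 5.86 CPM on library totals. In the primary control libraries it was 983 CPM, against 1563 CPM. The primary DM libraries ran from 3.34 to 20.2 CPM with TMM. The lowest of the other libraries was at 60.9 CPM, in primordial control.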
